A study of Mus musculus with 24 samples.

Results

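Messenger RNA of 10 transcription factor genes that build and maintain the projection neurons of the striatum was examined in wild-type (WT) and R6/1 mice given vehicle or RGFP109. The genes are Meis2, Bcl11b, Foxp1, Six3, Foxp2, Isl1, Zfp503, Ebf1, Ikzf1 and Ikzf2. They were taken by their symbols, and all 10 were found among the 24340 genes shared by the 6 deposited tables. R6/1 mice are a model of Huntington's disease whose transgene is the first exon of human HTT, with an expanded CAG repeat. RGFP109 (RG2833) is an inhibitor of the histone deacetylases HDAC1 and HDAC3, enzymes that remove acetyl groups from histones. The transgene was hemizygous on a C57BL/6J background, the WT mice were littermates, and all mice were male.

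The 24 striatal libraries came from 5 WT-vehicle, 6 R6/1-vehicle, 6 WT-RGFP109 and 7 R6/1-RGFP109 mice. Injections into the abdominal cavity (30 mg/kg RGFP109, or an equal volume of its dimethyl sulfoxide and saline solvent) were given 5 times a week for 3 weeks, to mice that were 11 to 14 weeks old at the start. The striatum of 1 hemisphere was taken 18 h after the last injection, at 14 to 17 weeks. Libraries were sequenced in 2 pools of 12, each with all 4 groups, and the group values do not separate the pools. The tables give 1 FPKM value (a level corrected for gene length and for the number of mapped fragments) per gene and group, and none per mouse. No difference could therefore be compared with the spread between mice, and every ratio below is a description of 4 group values.

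Most striatal neurons are spiny projection neurons, which send GABAergic axons out of the striatum by a direct pathway (dopamine receptor D1, substance P and dynorphin) or an indirect pathway (dopamine receptor D2, an adenosine receptor and enkephalin). Transcription factors set this identity in the embryo, and many stay on in the adult. Meis2, Bcl11b (Ctip2) and Foxp1 are found in projection neurons of both pathways. Isl1, Ebf1, Zfp503 (Nolz1) and Foxp2 are best known for the direct pathway, and Six3 and Ikzf1 (Ikaros) for the indirect pathway or its enkephalin neurons, while Ikzf2 (Helios) acts during striatal development. Several are not exclusive to these cells. Isl1 also marks cholinergic interneurons, Ebf1 is used by pericytes, Ikzf1 by microglia, and Bcl11b, Foxp1, Foxp2 and Meis2 by neurons of the cortex or thalamus. In bulk tissue, fewer cells of a type and less RNA per cell cannot be told apart.

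Start sites of 8 of the 10 genes were found in the RefSeq promoter table (GRCm38.p6, the same assembly as mm10), with 12 start sites in all. Foxp2 and Ikzf2 had no entry. The 250 bases before the start are shown for the most abundant factor, for the factor lowest in R6/1 relative to WT with vehicle, and for the only measured factor past the fold used below in the vehicle genotype pair. Each reads 5′ to 3′ on the strand of its gene. Capitals mark CCAAT or, in Meis2 alone, TATAAA on either strand, promoter letters known as boxes.
Meis2, chr2:116064620-116064869, minus strand: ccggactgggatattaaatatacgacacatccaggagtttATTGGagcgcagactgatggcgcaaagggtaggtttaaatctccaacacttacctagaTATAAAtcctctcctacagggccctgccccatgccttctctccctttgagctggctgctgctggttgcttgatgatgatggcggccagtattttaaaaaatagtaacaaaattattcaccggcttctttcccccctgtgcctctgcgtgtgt
Bcl11b, chr12:108003415-108003664, minus strand: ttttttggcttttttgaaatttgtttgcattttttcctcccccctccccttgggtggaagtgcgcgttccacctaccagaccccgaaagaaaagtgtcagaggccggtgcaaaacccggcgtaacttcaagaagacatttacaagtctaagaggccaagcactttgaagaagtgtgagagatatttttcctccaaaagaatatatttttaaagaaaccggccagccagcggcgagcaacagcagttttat
Isl1, chr13:116309689-116309938, minus strand: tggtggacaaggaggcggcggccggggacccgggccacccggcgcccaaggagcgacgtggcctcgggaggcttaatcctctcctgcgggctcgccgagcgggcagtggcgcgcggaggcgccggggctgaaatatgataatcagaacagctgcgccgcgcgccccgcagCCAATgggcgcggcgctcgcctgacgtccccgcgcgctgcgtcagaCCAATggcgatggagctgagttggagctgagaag

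These windows differed in composition. The Isl1 window held 33 CpG dinucleotides, more than 96.0% of all 32851 RefSeq windows of this length, with a GC content of 71.2%. The Bcl11b window held 9 CpG at a GC content of 44.8%, and the Meis2 window held 7 at 47.6%. The median was 10.5 CpG over the 12 windows of these genes and 6 over all windows. For Bcl11b and Isl1 the start site was the edge of the gene in the deposited tables, whereas that of Meis2 lay inside it.

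CCAAT was present in 4 of the 12 windows (Foxp1, Isl1, Meis2 and Six3) and in 33.8% of all windows. GGGCGG, a GC box, was present in 3 of 12 (Foxp1 and Ikzf1) and in 32.7% of all windows. TATAAA was found only in the Meis2 window among the 12 and in 12.4% of all. Letters bound by members of these families were also searched. TGACAG, a Meis motif, was found in 2 of 12 windows (Foxp1 and Six3) against 15.9% of all windows. TGGGAA, an Ikaros core, was found in 1 of 12 (Ebf1) against 21.6%. The forkhead letters TGTTTAC, in 3.17% of all windows, a palindromic Ebf motif, in 0.779%, and the cyclic AMP response element TGACGTCA, in 1.55%, were in none of the 12. Both strands were searched, none of these motifs contains another, and a match here is a match of letters only.

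The 10 genes spanned a wide range of levels (the plot of FPKM by group). Averaged over the 4 groups, Meis2 stood at 66.3 FPKM, higher than 90.5% of the 13715 genes with a mean of at least 1 FPKM (called measured genes below). Bcl11b followed at 27.9 FPKM and Foxp1 at 24.7 FPKM. Six3 stood at 10.6 FPKM, Foxp2 at 7.46, Isl1 at 6.17 and Zfp503 at 4.68. Ebf1 at 2.19 FPKM and Ikzf1 at 1.42 FPKM were low. Ikzf2 at 0.46 FPKM was below the minimum, so 9 of the 10 genes were measured and Ikzf2 entered no count. The steps in this order were uneven. Meis2 was 2.37 times Bcl11b, Foxp1 was 2.33 times Six3, Zfp503 was 2.13 times Ebf1 and Ikzf1 was 3.06 times Ikzf2. The closest neighbours were Bcl11b and Foxp1, with a ratio of 1.13. Within single groups Bcl11b was above Foxp1 in all 4, by 1.08 to 1.16 times, and Foxp2 was above Isl1 in all 4. In R6/1-RGFP109 Foxp2 and Isl1 were nearly equal, at 7.44 and 7.39 FPKM. The spread between mice around these ratios is not known.

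**Figure D1:**
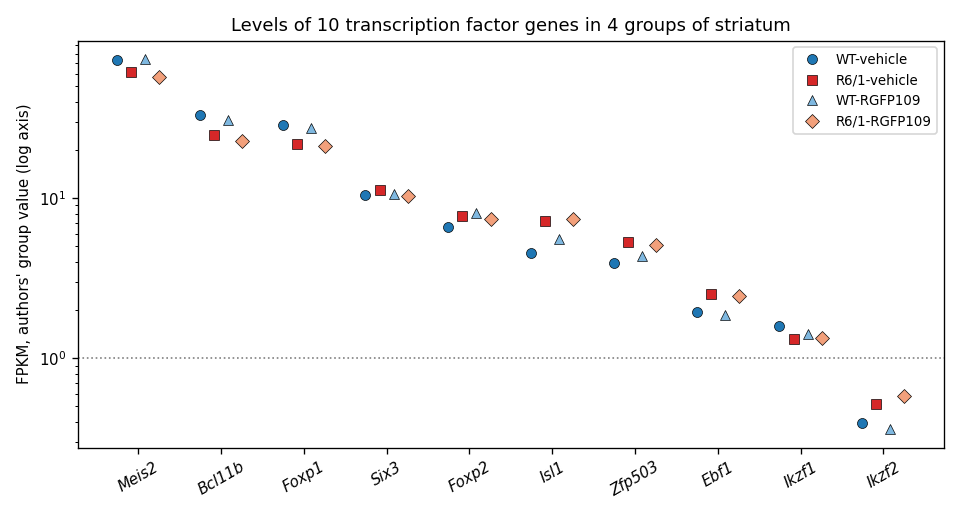
FPKM of the 10 transcription factor genes on a log axis, with 1 point for each group and the dotted line at 1 FPKM. Meis2, Bcl11b, Foxp1 and Ikzf1 were lower in both R6/1 groups than in both WT groups. Isl1, Zfp503, Ebf1 and Ikzf2, the last of these below the dotted line, were higher in both R6/1 groups than in both WT groups.

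The genotype difference was read in 2 pairs of groups that share no mice, R6/1-vehicle over WT-vehicle and R6/1-RGFP109 over WT-RGFP109. Ratios are log2 ratios after adding 0.05 FPKM, so that positive values are higher in R6/1, and a gene is called past the fold at an absolute log2 ratio above 0.5. With vehicle, the measured factors split into 5 above and 4 below 0. Only Isl1 was past the fold, or 1 of 9 where 14.1% of all measured genes were past it in either direction (3.95% higher and 10.1% lower). Under RGFP109 none of the 9 was, against 12.2% of all measured genes (3.51% higher and 8.69% lower). The median ratio of the 9 was 0.09 with vehicle and -0.07 under RGFP109, while that of all measured genes was -0.00 and 0.01. No test stands behind these counts, since each group has 1 value.

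Meis2, Bcl11b and Foxp1, the abundant factors of both pathways, were lower in R6/1. Bcl11b, a zinc finger protein needed for projection neuron differentiation (chr12:107910403-108003414), stood at 33.2 FPKM in WT-vehicle against 25.0 in R6/1-vehicle, with 30.8 in WT-RGFP109 and 22.6 in R6/1-RGFP109. Its log2 ratio was -0.41 with vehicle and -0.44 under RGFP109. Both R6/1 values were below both WT values. Foxp1, a forkhead repressor (chr6:98925342-99435345), had 28.7 FPKM in WT-vehicle and 21.9 in R6/1-vehicle, and 27.3 in WT-RGFP109 against 21.0 in R6/1-RGFP109. Its exons share 300 bases with the annotated gene Gm20696 and 135 with Gm49348. Its ratios were -0.39 and -0.38, closer to each other than those of any other of the 10 genes. Meis2, a homeodomain protein of the TALE class (chr2:115861264-116065058), had 73.0, 61.4, 73.8 and 57.0 FPKM in the same order. Its ratio was -0.25 with vehicle and -0.37 under RGFP109, so the R6/1 values were again the lowest pair. Even so, 13.2% of all measured genes had a ratio below that of Bcl11b with vehicle, 14.0% below that of Foxp1 and 22.4% below that of Meis2.

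Isl1, Ebf1 and Zfp503, known for the direct pathway, were higher in R6/1. Isl1, a LIM homeodomain protein (chr13:116298270-116309688), stood at 4.51 FPKM in WT-vehicle against 7.20 in R6/1-vehicle, with 5.56 in WT-RGFP109 and 7.39 in R6/1-RGFP109. Both R6/1 values were above both WT values. The log2 ratio was 0.67 with vehicle, above those of 97.8% of measured genes, and 0.41 under RGFP109, above those of 94.9%. Ebf1, a helix-loop-helix factor of direct pathway neurons (chr11:44618100-45008096), had 1.95 FPKM in WT-vehicle and 2.5 in R6/1-vehicle, and 1.86 in WT-RGFP109 against 2.46 in R6/1-RGFP109. Its ratios of 0.35 and 0.40 were above those of 91.4% and 94.5% of measured genes. Zfp503, a zinc finger repressor (chr14:21983962-21989601), had 3.95, 5.29, 4.35 and 5.13 FPKM in the same order, with ratios of 0.42 and 0.24. As Bcl11b was lower and Isl1 higher in R6/1, Bcl11b was 7.36 times Isl1 in WT-vehicle, 3.47 times in R6/1-vehicle, 5.53 times in WT-RGFP109 and 3.06 times in R6/1-RGFP109.

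Of the remaining factors, Foxp2 and Six3 did not keep a direction between the pairs, whereas Ikzf1 and Ikzf2, both at low levels, did. Foxp2, a forkhead factor of the direct pathway (chr6:14901349-15441977), had 6.56 FPKM in WT-vehicle against 7.75 in R6/1-vehicle, with 8.09 in WT-RGFP109 and 7.44 in R6/1-RGFP109. The WT-vehicle value was the lowest and the WT-RGFP109 value the highest, so the genotype ratio was 0.24 with vehicle and -0.12 under RGFP109. Six3, a homeodomain protein of indirect pathway neurons (chr17:85620834-85626191), lay between 10.3 and 11.2 FPKM in all 4 groups, with ratios of 0.09 and -0.04. Its exons share 168 bases with the antisense gene Gm28528 and 106 bases with the antisense transcript Six3os1, which had 3.74 to 4.89 FPKM, and strand was not stated for the counting. Ikzf1, the Ikaros zinc finger protein (chr11:11685925-11772926), had 1.59 FPKM in WT-vehicle and 1.32 in R6/1-vehicle, and 1.41 in WT-RGFP109 against 1.35 in R6/1-RGFP109, with ratios of -0.26 and -0.07. Ikzf2, the Helios protein of the same family (chr1:69531210-69685960), was below 1 FPKM in every group, with 0.394, 0.516, 0.360 and 0.585 FPKM in that order. Its ratios were 0.35 and 0.63. Of its exonic bases 144 are shared with the antisense gene Gm29114.

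**Figure D2:**
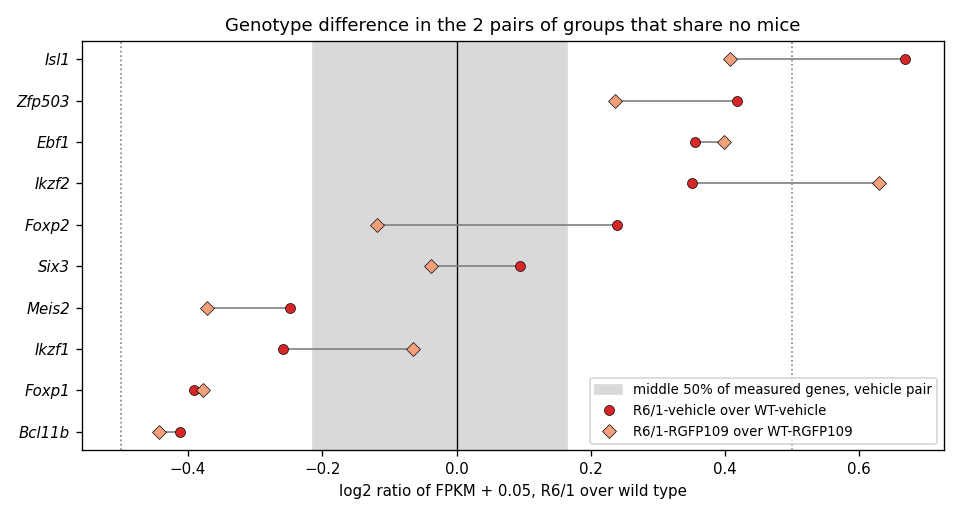
Log2 ratio of R6/1 over WT for each factor with vehicle (circles) and under RGFP109 (diamonds). The grey band holds the middle 50% of measured genes with vehicle (-0.21 to 0.16) and dotted lines mark the fold of 0.5. Isl1 with vehicle and Ikzf2, which is below 1 FPKM, under RGFP109 are past a dotted line, and the 2 values of Foxp2 lie on either side of 0.

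Between the pairs, 7 of the 9 measured factors had a ratio of the same sign, as did 81.9% of all measured genes. A ratio beyond 0.25 with the same sign in both pairs was found for Isl1 and Ebf1 on the higher side, 2 of 9 where 8.47% of measured genes were higher in both. On the lower side it was found for Bcl11b and Foxp1, 2 of 9 where 15.2% of measured genes were lower in both. Both shares rest on 2 genes each, and 2 more factors fell just short of 0.25 in 1 pair. Meis2 was at -0.249 with vehicle and Zfp503 at 0.237 under RGFP109. The ratio under RGFP109 minus that with vehicle was -0.36 for Foxp2 and -0.26 for Isl1, where the middle 95% of measured genes ran from -0.49 to 0.58.

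RGFP109 over vehicle gave small ratios within each genotype (the plot of treatment ratios). In R6/1 mice none of the 9 measured factors was past the fold, against 3.04% of all measured genes (1.53% higher and 1.51% lower). Their ratios ran from -0.14 for Bcl11b, with 25.0 FPKM under vehicle and 22.6 under RGFP109, to 0.04 for Isl1, with 7.20 and 7.39. Of the 9 ratios 7 were below 0, with a median of -0.06 against 0.00 for all measured genes. All 9 lay inside the range of the middle 95% of measured genes, -0.33 to 0.31. Ikzf2, below the minimum, had a ratio of 0.16.

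In WT mice none of the 9 was past the fold either, against 3.82% of all measured genes (1.7% higher and 2.12% lower). Isl1 and Foxp2 had the highest ratios, both 0.30 and both above those of 96.9% of measured genes. Isl1 went from 4.51 FPKM in WT-vehicle to 5.56 in WT-RGFP109, and Foxp2 from 6.56 to 8.09. Zfp503 was at 0.14, and the lowest was Ikzf1 at -0.17. All 9 again lay inside the middle 95% of measured genes, -0.44 to 0.35. The treatment ratios had the same sign in both genotypes for 4 of the 9 factors (Bcl11b, Foxp1 and Ebf1 below 0 and Isl1 above 0) and for 49.5% of all measured genes.

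**Figure D3:**
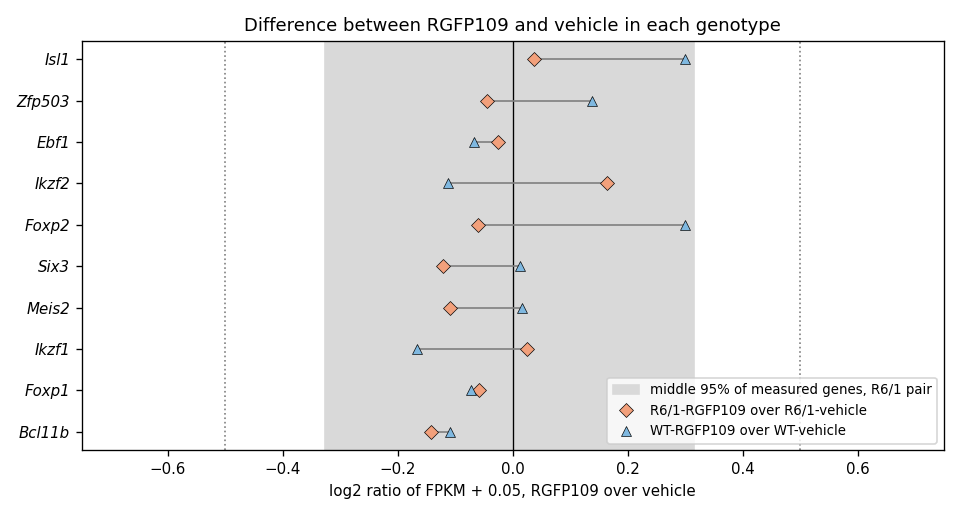
Log2 ratio of RGFP109 over vehicle in R6/1 (diamonds) and WT (triangles). The grey band holds the middle 95% of measured genes in R6/1 and dotted lines mark the fold of 0.5, which no factor reached in either genotype.

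Treated R6/1 mice were also set against WT-vehicle, the comparison that asks how far the treated animals stand from untreated wild type. Isl1, at 0.71, and Bcl11b, at -0.55, were past the fold. That is 2 of 9 where 13.9% of measured genes were past it, 3.88% higher and 10% lower. Foxp1 was at -0.45, Meis2 at -0.36, Zfp503 at 0.37, Ebf1 at 0.33, Ikzf1 at -0.23, Foxp2 at 0.18 and Six3 at -0.03. This comparison uses the R6/1-RGFP109 group of the treatment pair and the WT-vehicle group of the genotype pair, so its values are not independent of theirs.

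Genes of the same families and genes that work with these factors were read in the same way (the plot of gene lists). Of 18 paralogs 8 were measured, and 1 was past the fold in each genotype pair. With vehicle this was Zfp703, the nearest relative of Zfp503, at -0.53 (9.41 FPKM in WT-vehicle and 6.50 in R6/1-vehicle), opposite in direction to Zfp503 itself. Under RGFP109 it was Ebf4, named here after its value was seen, which at -0.5003 was barely past the fold. Meis1, the close relative of Meis2, was at 0.39 with vehicle and -0.02 under RGFP109. The medians of the 8 paralogs were -0.03 and -0.06. All 15 cofactors (Pbx and Pknox partners of Meis proteins, LIM domain adaptors and LIM-only proteins, Zfp423 and Zfp521 that bind Ebf proteins, and corepressors) were measured, and none was past the fold in either pair. Their medians were -0.05 and -0.17. Zfp423 was at -0.47 and -0.20, and Lmo4, a LIM-only protein, at -0.42 and -0.39.

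Of 13 other striatal transcription factors 11 were measured and 2 were past the fold in both pairs, both lower in R6/1. Rxrg, a retinoid X receptor, was at -1.01 with vehicle (62.0 FPKM in WT-vehicle and 30.8 in R6/1-vehicle) and at -0.85 under RGFP109. Rarb, a retinoic acid receptor, was at -0.56 and -0.54. The medians of the 11 were -0.02 and -0.14.

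Markers of the neurons themselves were read next. All 9 markers of projection neurons of both pathways were past the fold and lower in R6/1 in both pairs, with medians of -1.28 and -1.34. Scn4b, a sodium channel subunit, was at -3.00 and Rgs9, a regulator of dopamine signalling, at -1.54 with vehicle. The ratio closest to 0 among the 9 was -0.70, lower than that of every measured factor in either pair. These markers were chosen with earlier results of these data known, so this contrast with the factors is a description only. Indirect pathway markers were past the fold and lower for 5 of 6 in both pairs (medians -1.40 and -1.35), including Penk, the enkephalin precursor, at -2.01 and Adora2a, an adenosine receptor, at -1.97. Direct pathway markers were past it for 2 of 6 with vehicle and 4 of 6 under RGFP109, all lower (medians -0.44 and -0.77). Among these, Chrm4, a muscarinic receptor, was at -1.17 and Drd1, the D1 receptor, at -0.99 with vehicle. Eya1, a direct pathway marker named after its values were seen, was higher in R6/1 at 0.27 and 0.43, the only one of the 6 above 0.

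The striosome and matrix compartments gave few markers. Of 3 striosome markers 1 was past the fold with vehicle (Kremen1, at -0.70) and none under RGFP109, with Oprm1, the mu opioid receptor, at 0.49 with vehicle. Of 4 matrix markers 1 was past it in each pair, lower in R6/1. With vehicle this was Id4, at -0.85, while Calb1, which encodes calbindin, was at -0.17.

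**Figure D4:**
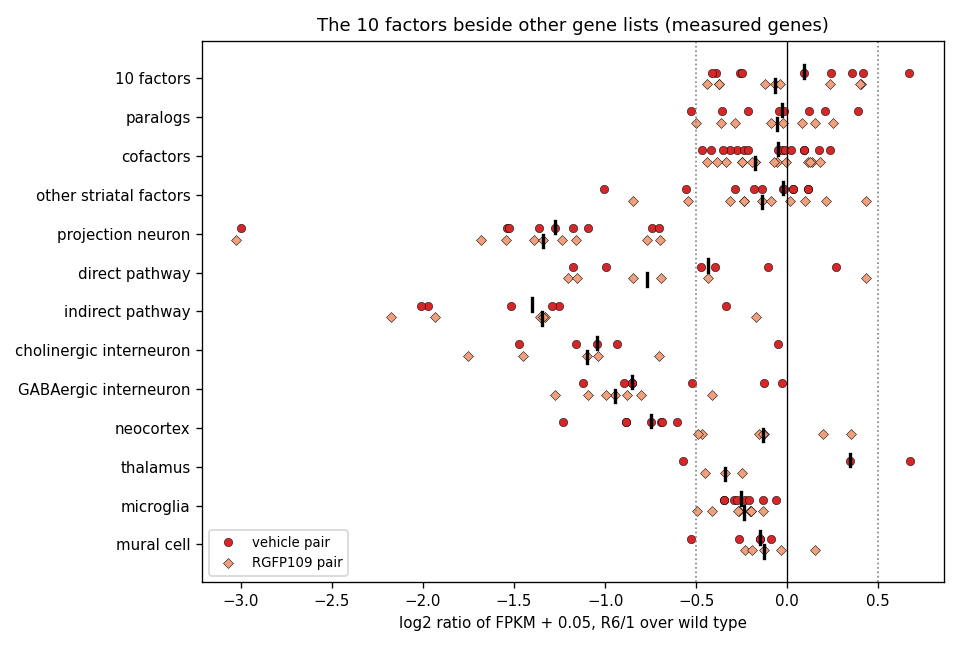
Log2 ratio of R6/1 over WT for each measured gene of 13 gene lists, with vehicle (circles) and under RGFP109 (diamonds), where the black bar is the median of the list and dotted lines mark the fold of 0.5. The 9 measured factors lie between -0.44 and 0.67, whereas the 9 genes of the projection neuron list all lie below -0.5. The lists were chosen with earlier results of these data known.

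Markers of other cells that use these factors were set beside them (the plot of factors and markers). For Isl1, 5 of 6 cholinergic interneuron markers were measured and 4 with vehicle and 5 under RGFP109 were past the fold, all lower in R6/1. Their summed level was 25.7 FPKM in WT-vehicle against 12.8 in R6/1-vehicle, with 29.0 in WT-RGFP109 and 11.9 in R6/1-RGFP109. Chat, the acetylcholine-synthesizing enzyme, was at -1.47 and Slc5a7, the choline transporter, at -1.16 with vehicle, opposite in direction to Isl1. For Ebf1, 5 of 6 mural cell markers were measured. With vehicle 1 was past the fold (Kcnj8, at -0.53) and none under RGFP109, and Pdgfrb was at -0.27 with vehicle. The mural sums were 68.1, 62.2, 64.2 and 57.5 FPKM in the order of groups above. These sums were lower in each R6/1 group than in its WT group, while Ebf1 was higher. Under RGFP109, 1 of the 5 mural markers had a genotype ratio above 0, at 0.15. The shares of Isl1 and Ebf1 that come from cholinergic interneurons and mural cells were not tested.

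For Ikzf1, none of 8 microglia markers was past the fold in either pair, and all 8 had a ratio below 0 in both, with medians of -0.25 and -0.24. Cx3cr1, the fractalkine receptor, was at -0.35 and Aif1 also at -0.35 with vehicle. Their sums were 342.1 FPKM in WT-vehicle and 297.9 in R6/1-vehicle, and 339.9 in WT-RGFP109 against 292.5 in R6/1-RGFP109, lower in both R6/1 groups, as Ikzf1 was. The share of Ikzf1 that comes from microglia was not tested.

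For Foxp2, 3 of 4 thalamic markers were measured. Slc17a6, the vesicular glutamate transporter of thalamic neurons, had 3.90 FPKM in WT-vehicle against 6.26 in R6/1-vehicle, with 6.10 in WT-RGFP109 and 5.12 in R6/1-RGFP109. It was lowest in WT-vehicle, as Foxp2 was, but so were Isl1 and Zfp503. Its ratios were 0.68 for genotype with vehicle, -0.25 under RGFP109 and 0.64 for treatment in WT. The ratios for genotype with vehicle and for treatment in WT share the WT-vehicle value, so they are not independent. Tcf7l2, the third measured marker, named after its values were seen, was at 0.34, -0.34 and 0.49 in the same comparisons. Prkcd did not follow, at -0.57, -0.45 and -0.04. The part of thalamic tissue in the Foxp2 values was not tested.

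**Figure D5:**
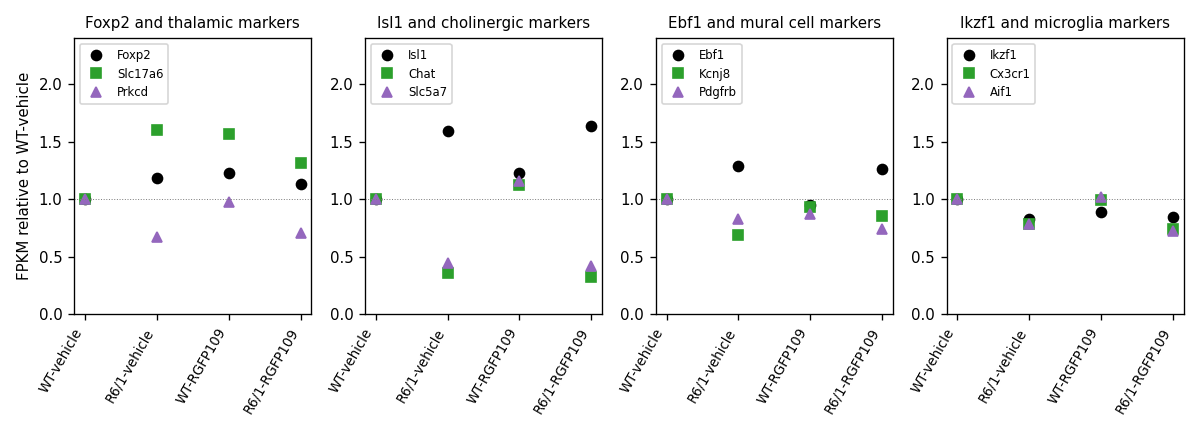
FPKM relative to WT-vehicle of 4 factors (circles) and markers of other cell types that use them (squares and triangles), with 1 point for each group. Chat and Slc5a7 were lower in R6/1 where Isl1 was higher, and Cx3cr1 and Aif1 were lower in both R6/1 groups, as Ikzf1 was.

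For Bcl11b, Foxp1 and Meis2, all 7 markers of neocortical projection neurons were past the fold and lower in R6/1 with vehicle (median -0.75, with Fezf2 at -1.23 and Slc17a7 at -0.89), and none was under RGFP109 (median -0.13). Their sums were 358.2 FPKM in WT-vehicle and 196.7 in R6/1-vehicle, and 329.6 in WT-RGFP109 against 250.4 in R6/1-RGFP109. In the R6/1 treatment pair 3 of the 7 were higher past the fold and the median was 0.45, while Bcl11b, Foxp1 and Meis2 were at -0.14, -0.06 and -0.11. The part of cortical tissue in the values of the 3 factors was not tested.

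Of the 7 GABAergic interneuron markers 5 with vehicle and 6 under RGFP109 were past the fold, all lower in R6/1. Choroid plexus markers, a sign of tissue from the adjoining ventricle, were past the fold and lower in R6/1 for 5 of 6 in both genotype pairs, with medians of -1.03 and -1.32. In the treatment pairs all 6 were lower under RGFP109 in both genotypes, with medians of -2.25 in R6/1 and -1.92 in WT. Their sums were 1483 FPKM in WT-vehicle and 630.4 in R6/1-vehicle, and 319.8 in WT-RGFP109 against 39.4 in R6/1-RGFP109. Oligodendrocyte markers were past the fold and lower in R6/1 for 3 of 5 with vehicle and none of 5 under RGFP109, with medians of -0.51 and -0.03. Astrocyte markers were past it for 1 of 5 and 2 of 5, all lower, with medians of -0.37 and -0.42. Endothelial markers were past it for 1 of 5 in each pair, also lower, with medians of -0.30 and -0.22. Pan-neuronal markers were past it for none of 5 in either pair, with medians of -0.30 and -0.28. The part of these tissues and cell types in the values of the factors was not tested.

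The pattern of Isl1 over the 4 groups was compared with that of each other measured gene, as the root mean square difference of log2 levels centred on their mean. The closest of 13714 genes were Phf6 (0.017), Fam199x (0.018) and 5730405O15Rik (0.018). Phf6 encodes a PHD finger protein of the nucleus and stood at 4.74 FPKM in WT-vehicle against 7.42 in R6/1-vehicle, with 5.69 in WT-RGFP109 and 7.52 in R6/1-RGFP109. A difference below 0.1 was found for 236 genes, or 1.72%. The comparison rests on 4 group values per gene.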

How the data were processed

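Striatal RNA-seq libraries of 24 mice in 4 groups were compared, with groups taken from the sample titles. The authors aligned single-end reads of 51 bases to RefSeq transcripts of mm10 with STAR 2.5.0b and, with Cufflinks 2.2.1, deposited 6 Cuffdiff tables, 1 for each pair of groups, with 1 FPKM value per gene and group. The deposited columns named MUT were read as R6/1. Fold change, test statistic, p-value, q-value and status columns of the authors' comparisons were not used. Cuffdiff scales FPKM within each pair. Ratios were therefore taken within the table of the pair, as log2 of FPKM plus 0.05, and levels were averaged over 3 tables after scaling by a common factor (0.966 to 1.04), after which the tables differed by at most 0.284% for these genes, which is not spread between mice. Counts per library were not used here, depth is unknown and no interval is given. Genes with a mean of at least 1 FPKM over the 4 groups (13715) were the background. The members and gene lists were chosen with earlier results of these data known. Of each list, the 2 measured genes with the largest absolute vehicle genotype ratio could be named, and for a factor past the fold in the vehicle genotype pair, the 3 genes most like it. Coordinates are those of the tables with 1 added to the start. Exon overlaps came from GENCODE M21. Scripts were tested on simulated data (200 changed genes) and used Python 3.11.15, numpy 2.4.6 and pandas 2.3.3.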

Additional observations from a re-analysis of the deposited data

How the results depend on the processing

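The tables hold 1 pooled value per group, so no replicate could be left out, and the authors' own tests were not used. No paired analysis was possible because the columns carry no replicate numbers. The counts of factors past the fold depended on the threshold. At an absolute log2 ratio above 0.25 they were 6 (3 higher and 3 lower) for genotype with vehicle, 5 (2 higher and 3 lower) for genotype under RGFP109, 2 (both higher) for RGFP109 in WT and 6 (3 higher and 3 lower) for R6/1-RGFP109 over WT-vehicle. These counts are of 9 factors. Of the 13715 measured genes, 5178 (2110 higher and 3068 lower), 4454 (1773 and 2681), 1417 (565 and 852) and 5125 (2146 and 2979) were past 0.25 in these comparisons. For RGFP109 in R6/1, where no factor was past the fold under any alternative, 933 were (457 higher and 476 lower). Above 1, no factor was left in the 2 comparisons that had any. Of the 13715 measured genes, 580, 506, 244, 297 and 565 were past it (genotype with vehicle, genotype under RGFP109, RGFP109 in R6/1, RGFP109 in WT, treated R6/1 against WT-vehicle). With no minimum FPKM, Ikzf2 made 1 of 10 factors past the fold for genotype under RGFP109 and 3 of 10 (2 higher and 1 lower) for R6/1-RGFP109 over WT-vehicle. Of the 20371 genes then counted, 4033, 3555, 1483, 2076 and 3999 were past it in that order of comparisons. With a minimum of 5 FPKM these were 1166, 959, 256, 285 and 1120 of 10068 genes. Of the 6 factors left, 1 was past it for genotype with vehicle and 2 (1 higher and 1 lower) for R6/1-RGFP109 over WT-vehicle. None was in the other comparisons. Of 200 single ratios under other pseudocounts, centring or indirect tables, 194 moved by less than 0.1, 6 moved further (all low genes with 1 FPKM added, by at most 0.41) and 0 changed sign. Centring and indirect tables, with 50 ratios each, reuse the same group values and could hardly move a ratio. Their largest shifts were 0.0096 and 0.0023. The 6 that moved were of the 50 with 1 FPKM added. Taking group levels without scaling moved 0 of 40 by more than 0.1. The scaling factors left out there were 1 and 0.997, too near each other to move a level that far.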
